A study of Mus musculus with 19 samples.

Results

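The 7 genes described here encode proteins that build or anchor the actin core of sensory microvilli. Vil1, Espn and Pls1 (villin, espin and plastin 1) bundle actin filaments. Ezr, Rdx and Msn (ezrin, radixin and moesin, the ERM family) tie filaments to the plasma membrane, and Eps8 caps and bundles filaments at their growing ends. They were chosen by this role, by a rule that uses no measured value though earlier results of these data were known, and are 7 of the 35596 genes counted. All 7 passed the filter on low counts and were among the 19465 genes tested.

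The libraries came from whole vomeronasal organs (VNOs) of mice labelled female, at postnatal day 21. Smad4, the shared mediator of canonical TGFβ and BMP signaling, had been removed by Cre in 2 mouse lines. AP-2εCre is expressed from the Tfap2e locus and acts in immature and maturing basal vomeronasal sensory neurons (VSNs), and OMPCre acts in mature apical and basal VSNs. Each line held 3 groups of 3 libraries, 18 in all, each titled a biological replicate. The conditional knockouts (cKO) were Smad4 flox/flox and carried 1 copy of Cre, AP-2εCre+/- in the first line and OMPCre+/- in the other. The heterozygotes carried AP-2εCre+/- or OMPCre+/- with no floxed Smad4 named in their labels. The remaining controls are labelled Wild Type, while the methods list the corresponding controls as Smad4 flox/flox, and they are called WT-labelled controls here. A further AP-2εCre library has the title of a heterozygote and the genotype label of a cKO and entered no comparison.

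VSNs end at the surface of the organ in dendritic knobs that bear microvilli, where pheromone receptors and the transduction channel TRPC2 lie. The core of a microvillus is a bundle of parallel actin filaments, and ERM proteins, once phosphorylated and opened, bind membrane proteins at their front end and actin at their tail. The study stained villin to find the knobs, and the comparisons below ask whether the transcripts of villin and of its partner proteins differed between genotypes at the level of the whole organ. In whole tissue, fewer cells of a type and less RNA per cell cannot be told apart.

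Library totals ranged from 43385516 to 134042284 estimated counts, with a median of 63096714. The largest total belonged to AP-2εCre cKO replicate 2, and the next largest was 75583450. Member genes drew between 609 counts (Espn) and 38486 counts (Ezr) in a library, so counting error was small beside the spread between libraries. Levels are given as CPM, the counts of a gene per 1000000 counts of the library, after TMM scaling. Smad4 itself stood at 81.0, 70.5 and 39.6 CPM in the AP-2εCre WT-labelled controls, 43.9, 79.7 and 41.5 in the heterozygotes and 66.1, 66.5 and 33.8 in the cKO, so that all 3 groups overlapped. In the OMPCre line it stood at 79.0, 73.4 and 64.8 CPM in WT-labelled controls, 83.9, 76.3 and 77.6 in heterozygotes and 61.9, 62.5 and 54.4 in cKO, with every cKO library below every control (log2 fold change -0.35, SE 0.25, edgeR adjusted p = 1). The floxed exon was not counted apart from the rest of Smad4, and cells without Cre also contribute, so these levels are a weak check of the labels. The labels name VSNs as the cell type. All 4 markers of mature VSNs (Omp, Trpc2, Ano1 and Ano2) had means of at least 1 CPM in every group, and so had the markers of sustentacular, ciliated, endothelial, immune, glial and red blood cells, so the samples held the whole organ.

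The sequences that follow show how alike the ERM genes are at the end that binds actin, since near-identical stretches decide whether reads can be told apart. They are the last 69 coding bases, stop codon included, of the most counted transcript of each gene, 5′ to 3′, from GENCODE vM21 on GRCm38. Capitals in Rdx and Msn mark bases that differ from Ezr, and the end of Vil1, which encodes the tail of the villin headpiece, another actin-binding module, is given beside them.
Ezr (chr17:6739303-6739371, minus strand): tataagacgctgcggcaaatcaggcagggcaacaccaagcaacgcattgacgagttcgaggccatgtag
Rdx (chr9:52086411-52086479, plus strand): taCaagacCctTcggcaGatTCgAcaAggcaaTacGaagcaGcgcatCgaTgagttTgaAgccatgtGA
Msn (chrX:96166566-96166634, plus strand): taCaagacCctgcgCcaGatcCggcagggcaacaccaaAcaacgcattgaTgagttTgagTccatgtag
Vil1 (chr1:74434923-74434991, plus strand): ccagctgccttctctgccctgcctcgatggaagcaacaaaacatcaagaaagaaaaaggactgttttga
Msn differed from Ezr at 9 of the 69 bases (87% identity) and Rdx at 17 (75.4%). The coding regions are of nearly equal length, with 586 codons in Ezr, 583 in Rdx and 577 in Msn against 827 in Vil1. Over whole transcripts the likeness hardly reached the length of a unique match. Ezr and Msn shared 2 stretches of 31 bases, Rdx shared none with any other gene, and Vil1 shared 2 with its relative Avil. Ezr shared 40 of its 3134 stretches (1.28%), of which 38 were with the processed pseudogene Gm5739, so the count of Ezr carries a small uncertainty from that copy.

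The genes lie apart in the genome, on GRCm38 by GENCODE vM21. Vil1 (ENSMUSG00000026175.12) spans chr1:74409376-74435559, Ezr (ENSMUSG00000052397.8) chr17:6738041-6782784, Rdx (ENSMUSG00000032050.17) chr9:52047173-52088735 and Msn (ENSMUSG00000031207.16) chrX:96096042-96168552. Espn (ENSMUSG00000028943.18) spans chr4:152120331-152152371, Eps8 (ENSMUSG00000015766.14) chr6:137477245-137654876 and Pls1 (ENSMUSG00000049493.13) chr9:95752642-95845311. Rdx and Pls1 share a chromosome and no other pair does.

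All 7 genes were expressed in every library. Levels between genes are compared per transcript length, as TPM, the length-corrected share of a transcript in 1000000. By summed TPM over the 18 libraries Ezr stood highest, with a mean of 113 ± 23.5 (SD, n = 18), and was above Msn in 18 of 18 libraries, with ranges of the 2 genes that did not overlap. Msn (43.2 ± 10.3), Rdx (36.8 ± 9.28) and Vil1 (35.6 ± 11.3) followed with overlapping ranges, and Rdx exceeded Vil1 in only 10 of 18 libraries. Eps8 (17.5 ± 6.1), Pls1 (10.2 ± 1.96) and Espn (6.89 ± 2.15) came last, each range overlapping that of its neighbour.

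The order depended in part on short transcripts. A processed transcript of 643 bases, Ezr-202, held a median of 42.0% of Ezr's TPM but only 8.9% of its estimated counts, and the 744-base Vil1-202 held 27.7% of Vil1's TPM and 6.25% of its counts. With the most counted transcript of each gene alone, Ezr stood at 65.1 TPM, Msn at 42.7, Rdx at 27.9, Vil1 at 25.2, Pls1 at 9.41, Eps8 at 8.79 and Espn at 2.3. On that scale Vil1 lay above Pls1, and Eps8 above Espn, in 18 of 18 libraries with no overlap of ranges, while Ezr and Msn then overlapped. Most counts of a gene went to 1 full-length coding transcript, at 89.4% to 97.0% for Vil1-201, 98.9% to 99.9% for Msn-201 and 98.5% to 100% for Pls1-201. Assignment was less stable for Rdx-203 (50.9% to 91.2%), Eps8-202 (65.7% to 90.7%) and Espn-201 (44.5% to 71.5%).

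Across libraries the genes varied to different degrees. The coefficient of variation of CPM over the 18 libraries was lowest for Rdx (8.1%), lay between 12.3% and 15.6% for Msn, Eps8, Ezr and Vil1, and was highest for Espn (17.9%) and Pls1 (19.0%). Vil1 and Espn each spanned a 2.14-fold range from the lowest to the highest library, Pls1 a 1.88-fold range and Rdx a 1.32-fold range.

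**Figure D1:**
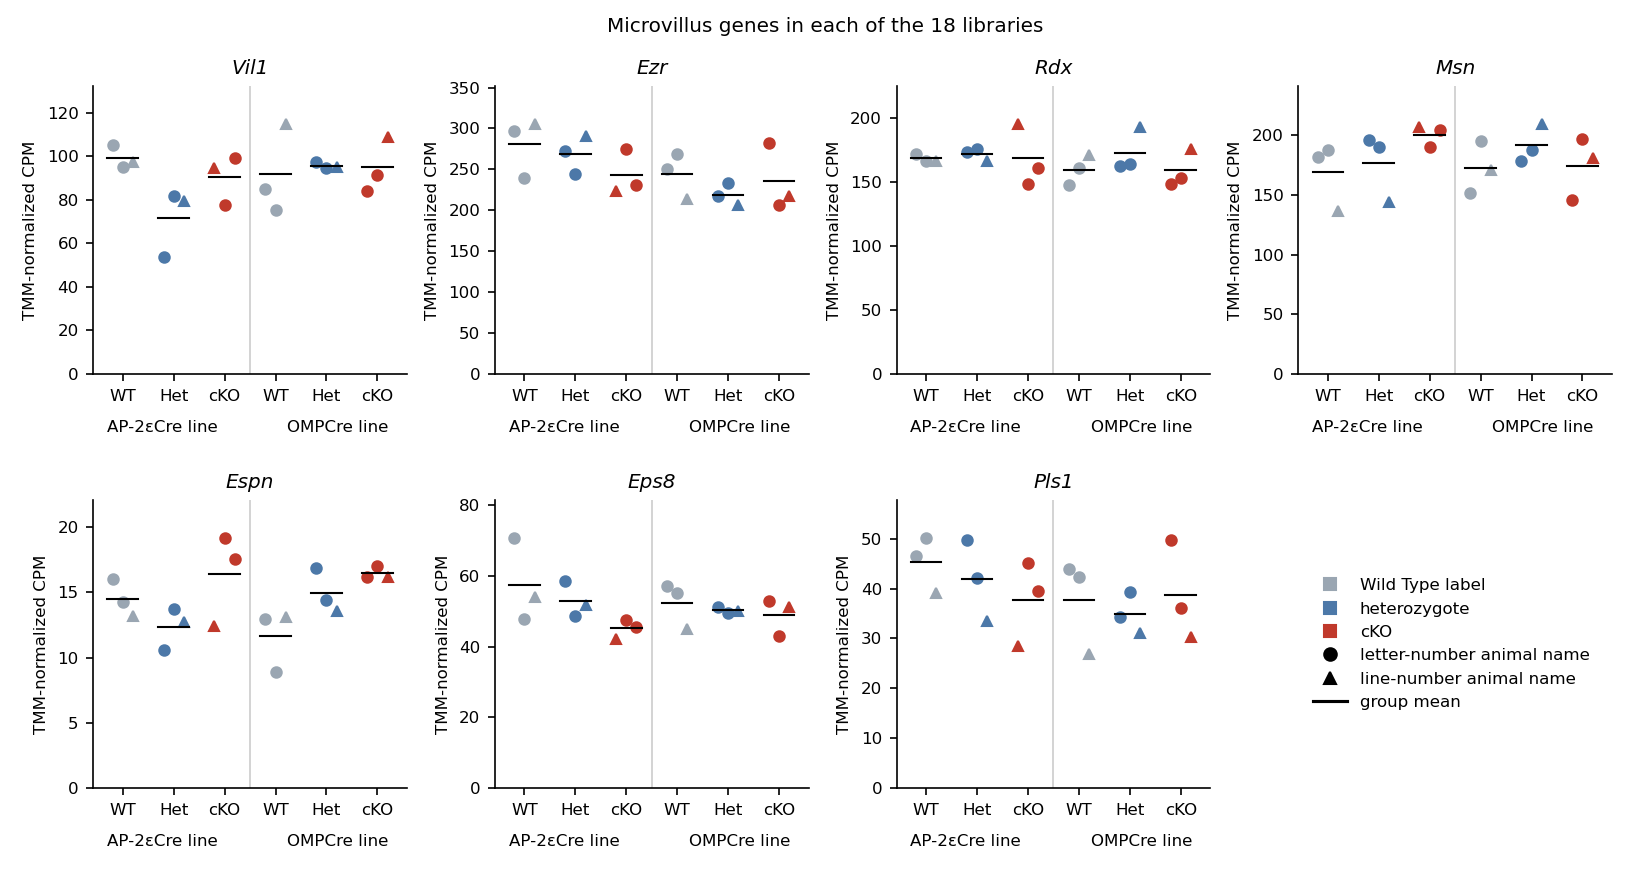
TMM-normalized CPM of the 7 microvillus genes in each library (y axes from 0), by group on the x axis (WT, WT-labelled controls; Het, heterozygotes; cKO), with black lines at group means and the shape giving the form of the animal's name. Groups overlap in most panels; Vil1 is lower in the AP-2εCre heterozygotes (53.8 to 81.7) than in the WT-labelled controls of that line (95 to 105), and the triangles of Pls1 lie lowest in every group.

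Vil1, the transcript of the knob marker villin, did not differ detectably between cKO and controls in either line. The study judged knobs by protein staining, mainly in adults, and found few normal basal knobs in AP-2εCre cKO. The values here are RNA of the whole organ at day 21 and do not measure knobs. In the AP-2εCre line Vil1 stood at 94.5, 77.8 and 99.4 CPM in cKO, 105, 95 and 97.3 in WT-labelled controls and 53.8, 81.7 and 79.4 in heterozygotes. The cKO libraries lay within the range of the controls. Against both kinds of control together, the cKO was 1.07-fold (log2 0.10, SE 0.14, 95% interval -0.20 to 0.41, edgeR adjusted p = 0.876). Apart, the log2 difference was -0.13 (SE 0.17, interval -0.49 to 0.23, edgeR adjusted p = 0.928) against WT-labelled controls and 0.34 (SE 0.17, interval -0.02 to 0.69, edgeR adjusted p = 0.531) against heterozygotes. Single libraries moved both small values. The difference from both controls was 0.02 without heterozygote replicate 1, 0.03 without cKO replicate 3, 0.16 without heterozygote replicate 2 and 0.20 without cKO replicate 2, and that from heterozygotes was 0.17 without heterozygote replicate 1. None of the 7 genes was called by edgeR (adjusted p under 0.05) in this comparison, in which 0.0822% of all genes tested were called. DESeq2 called none either.

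The AP-2εCre heterozygotes overlapped the cKO for Vil1 but not the WT-labelled controls. All 3 lay below all 3 of the latter, at a mean of 71.6 ± 15.5 against 99.1 ± 5.35 CPM (SD, n = 3 each), which is 0.723-fold (log2 -0.47, SE 0.17, interval -0.83 to -0.11). The edgeR adjusted p was 0.687, and the exact permutation test gave p = 0.1, the smallest that 20 splits allow. Of all genes tested, 4.9% lay lower in heterozygotes with no overlap, so a single such gene among 7 is near the background, and 0.17% were called. The value rested in part on heterozygote replicate 1, without which the log2 difference was -0.30. Among the libraries whose animals have a letter and a number as their name the log2 difference was -0.58, and in the single pair with the name of the line and a number it was -0.29.

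Markers of basal VSNs were low in the same heterozygotes. The summed CPM of the list (Gnao1, Tfap2e, Robo2 and Vmn2r1) was 276 to 409 in AP-2εCre heterozygotes, 457 to 526 in WT-labelled controls and 377 to 467 in cKO. All 4 markers were lower in heterozygotes, and 1 was called, Tfap2e, the locus that carries Cre. Sustentacular markers, 3 of 5 higher and none called, summed to 1600 to 3130 CPM in these heterozygotes and 1360 to 1720 in WT-labelled controls. The part of either in the Vil1 values was not tested.

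In the OMPCre line Vil1 stood at 84.0, 91.6 and 109 CPM in cKO, 84.8, 75.2 and 115 in WT-labelled controls and 97.5, 94.7 and 94.9 in heterozygotes. These groups overlapped fully, and the cKO was 1.01-fold the controls (log2 0.02, SE 0.14, interval -0.29 to 0.32, edgeR adjusted p = 1). Here too none of the 7 genes was called by edgeR or DESeq2, with 0.0771% of all genes called by edgeR. The interval spans 0.817-fold to 1.25-fold in the whole organ.

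Ano1, the chloride channel TMEM16A that the study stained in the knobs beside villin, is no member of the group and is given for comparison. It stood at 127, 116 and 95.1 CPM in AP-2εCre cKO, below all 6 controls (132 to 184), with a log2 difference of -0.42 (SE 0.11, edgeR adjusted p = 0.202). Of all genes, 2.76% lay lower in these cKO with no overlap. The study reports a significant fall of Ano1 mRNA in these cKO, from its own fit, so its call and this one differ.

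None of the ERM genes was called in either line. Ezr, the form best known from epithelial brush borders, stood at 223, 275 and 231 CPM in AP-2εCre cKO, 297, 240 and 306 in WT-labelled controls and 273, 244 and 291 in heterozygotes. The cKO and control libraries overlapped (log2 -0.18, SE 0.12, edgeR adjusted p = 0.654). The difference was -0.06 among libraries with a letter and a number and -0.41 among those named by line and number, -0.12 without cKO replicate 1 and -0.28 without cKO replicate 2. The OMPCre libraries held 282, 207 and 217 CPM of Ezr in cKO, 250, 269 and 214 in WT-labelled controls and 217, 233 and 207 in heterozygotes, again with overlap (log2 0.02, SE 0.12).

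Rdx, the ERM protein prominent in hair cell stereocilia, varied least. It stood at 196, 149 and 161 CPM in AP-2εCre cKO and between 167 and 176 in the 6 controls of the line, so the cKO mean of 168 ± 24.3 (SD, n = 3) was close to that of the WT-labelled controls, 169 ± 3.37, with a wider spread. The OMPCre cKO libraries held 149, 153 and 176 CPM against 148 to 193 in controls. The log2 differences were -0.02 (SE 0.09) and -0.07 (SE 0.09), with intervals of -0.21 to 0.17 and -0.26 to 0.13. The study's list of enriched terms names Rdx among the genes lower in AP-2εCre cKO, a call that was not found here. In the AP-2εCre line the direction turned with the form of the animals' names, at -0.15 among libraries with a letter and a number and 0.23 among those named by line and number.

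Msn, the ERM protein abundant in immune and endothelial cells, stood at 207, 190 and 205 CPM in AP-2εCre cKO, 182, 188 and 137 in WT-labelled controls and 196, 190 and 144 in heterozygotes. All 3 cKO libraries lay above all 3 WT-labelled controls but not above the heterozygotes. Against both controls the log2 difference was 0.21 (SE 0.13, interval -0.06 to 0.48, edgeR adjusted p = 0.603). Its size differed with the form of the animals' names, at 0.06 among libraries with a letter and a number and 0.55 among those named by line and number. Immune markers, 6 of 6 higher and none called, summed to 191 to 199 CPM in these cKO and 151 to 180 in the controls, and their part in the Msn values was not tested. In the OMPCre line Msn stood at 146, 197 and 181 CPM in cKO, 152, 195 and 171 in WT-labelled controls and 179, 188 and 210 in heterozygotes, with full overlap (log2 -0.06, SE 0.13).

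Espn was the member with the largest difference between cKO and both controls in each line, though it was not called and its size depended on single libraries. It stood at 12.4, 19.2 and 17.6 CPM in AP-2εCre cKO, 16.0, 14.3 and 13.2 in WT-labelled controls and 10.6, 13.7 and 12.7 in heterozygotes. In the OMPCre line it stood at 16.2, 17.0 and 16.2 CPM in cKO, 13.0, 8.94 and 13.1 in WT-labelled controls and 16.9, 14.4 and 13.6 in heterozygotes. Both cKO groups thus overlapped the pooled controls of their line, and in the OMPCre line the cKO lay above all WT-labelled controls. The log2 difference from both controls was 0.30 (SE 0.15, interval -0.02 to 0.61, edgeR adjusted p = 0.522) in the AP-2εCre line and 0.32 (SE 0.15, interval 0.01 to 0.63, edgeR adjusted p = 1) in the OMPCre line. In the AP-2εCre line the difference was 0.42 among libraries with a letter and a number and -0.06 among those named by line and number, 0.17 without cKO replicate 2 and 0.46 without cKO replicate 1.

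The mean of both lines for Espn was 1.24-fold (log2 0.31, SE 0.10, interval 0.09 to 0.53), with an unadjusted edgeR p of 0.00971 and an adjusted p of 0.343. In this mean over lines 0.205% of all genes were called and none of the 7. Against OMPCre WT-labelled controls alone the difference was 0.50 (SE 0.17, edgeR adjusted p = 0.808), and without WT-labelled replicate 2, the lowest library, it was 0.34. OMPCre heterozygotes also lay above the WT-labelled controls with no overlap (log2 0.36, SE 0.17, edgeR adjusted p = 0.743). This value was 0.20 without WT-labelled replicate 2, 0.11 with the most counted transcript alone and 0.06 in the pair named by line and number. Apical VSN markers, 3 of 3 higher and none called in each cKO, summed to 626 to 686 CPM in OMPCre cKO and 564 to 621 in its controls, and to 678 to 720 in AP-2εCre cKO and 550 to 650 in its controls. Immature neuron markers summed to 541 to 613 CPM in OMPCre cKO and 456 to 539 in its controls. In the AP-2εCre line these sums overlapped, at 476 to 720 in cKO and 423 to 604 in controls. The part of either list in the Espn values was not tested. The counts of Espn were summed over 20 annotated transcripts.

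Eps8 was lower in AP-2εCre cKO than in every control of the line, also without being called. It stood at 42.2, 47.6 and 45.6 CPM in cKO, 70.8, 47.8 and 54.0 in WT-labelled controls and 58.6, 48.7 and 51.7 in heterozygotes. The highest cKO library and the lowest control were nearly equal. The cKO was 0.818-fold the controls (log2 -0.29, SE 0.12, interval -0.54 to -0.04), with an unadjusted edgeR p of 0.0254 and an adjusted p of 0.413. The exact permutation test over 84 splits gave p = 0.048, where the smallest possible is 0.012. Of all genes, 2.76% lay lower in the cKO with no overlap with the 6 controls. Ciliated respiratory cell markers, 5 of 5 lower and none called, summed to 304 to 489 CPM in these cKO and 490 to 621 in the controls. Progenitor markers, 4 of 4 higher and none called, summed to 121 to 139 CPM against 60.2 to 118, and gland markers, 2 of 3 lower and none called, to 127 to 208 against 342 to 9480. The part of these cells in the Eps8 values was not tested. Eps8 in the OMPCre line stood at 52.8, 43.0 and 51.2 CPM in cKO and 44.9 to 57.2 in controls, with overlap (log2 -0.07, SE 0.12). The study's list of enriched terms names Eps8 among the genes lower in OMPCre cKO, a call that was not found here.

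Pls1, the plastin of intestinal microvilli and stereocilia, stood at 28.5, 45.2 and 39.6 CPM in AP-2εCre cKO, 46.5, 50.2 and 39.1 in WT-labelled controls and 49.7, 42.2 and 33.6 in heterozygotes. For OMPCre it stood at 49.8, 36.2 and 30.3 CPM in cKO, 44.0, 42.3 and 26.8 in WT-labelled controls and 34.3, 39.4 and 31.1 in heterozygotes. Every group spread widely and overlapped its controls, with log2 differences of -0.20 (SE 0.20) and 0.10 (SE 0.19) and intervals reaching from -0.62 to 0.21 and from -0.32 to 0.51. The AP-2εCre value was -0.03 without cKO replicate 1, -0.13 without heterozygote replicate 1 and -0.35 without cKO replicate 2.

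**Figure D2:**
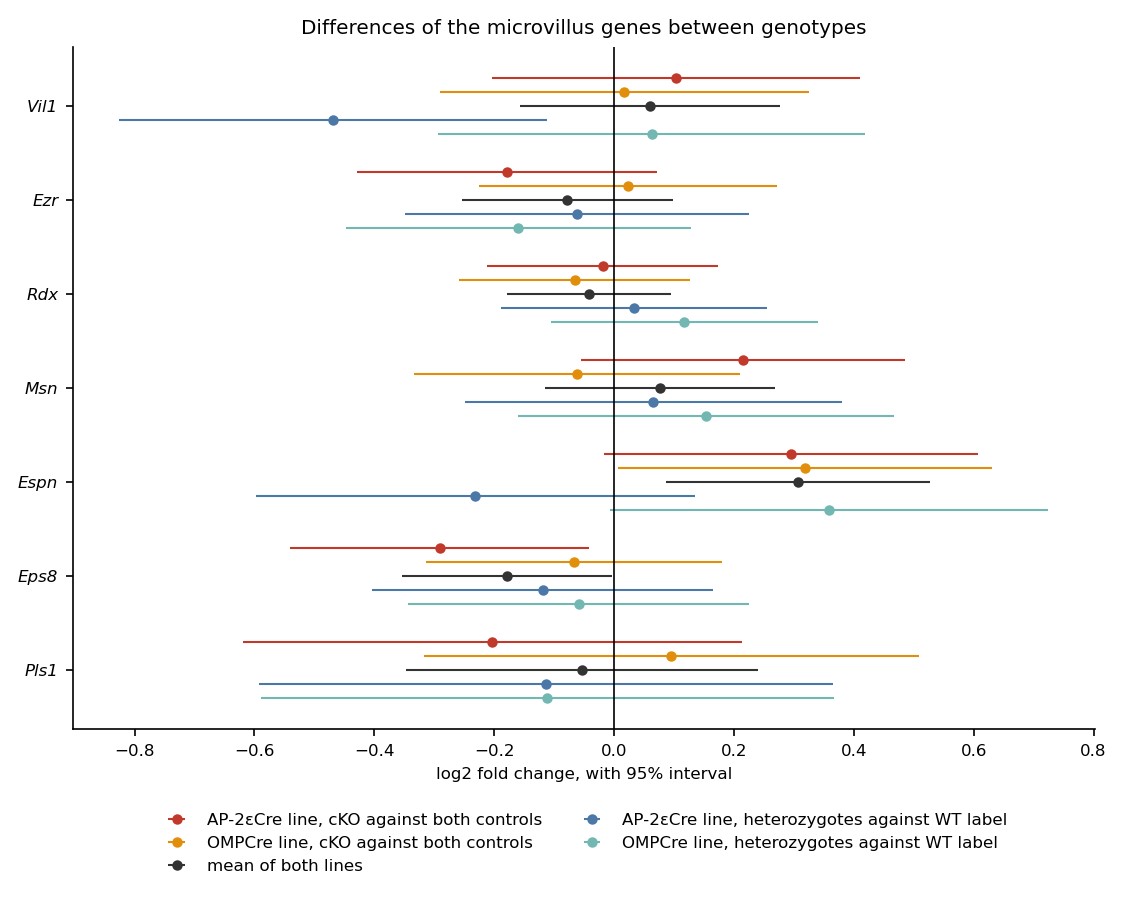
Log2 fold changes of the 7 genes (points) with 95% intervals (lines) from edgeR, for the cKO against both controls in each line, the mean of both lines, and the heterozygotes against the WT-labelled controls. Most intervals cross 0, the widest belong to Pls1, and none of the differences shown passed an adjusted p of 0.05; those furthest from 0 are Vil1 in AP-2εCre heterozygotes (-0.47) and Espn in OMPCre heterozygotes (0.36).

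Taking each kind of control alone gave no call either. Of the 7 genes none was called between AP-2εCre cKO and WT-labelled controls, where 0.149% of all genes were called, or between AP-2εCre cKO and heterozygotes, where 0.139% were. The same held for OMPCre cKO against WT-labelled controls (0.0205% of all genes) and against heterozygotes (0.0822%), and for OMPCre heterozygotes against WT-labelled controls (0.0462%). Eps8 was lower in AP-2εCre cKO than in each kind of control with no overlap, as were 6.92% of all genes against WT-labelled controls and 7.53% against heterozygotes. Msn was higher than in WT-labelled controls with no overlap, as were 6.6% of all genes. Espn was so in OMPCre cKO and in OMPCre heterozygotes, each against WT-labelled controls, as were 4.47% and 6.38% of all genes.

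As a list the 7 genes were split in direction against both controls. In the AP-2εCre line 3 were higher and 4 lower in cKO than in both controls, with a median log2 difference of -0.02 against 0.01 over all genes tested, and in the OMPCre line 4 were higher and 3 lower, with a median of 0.02 against 0. Against WT-labelled controls alone 2 were higher and 5 lower in AP-2εCre cKO (median -0.13 against 0.0032 over all genes) and likewise in AP-2εCre heterozygotes (median -0.11 against 0.0046), 2 comparisons that share their controls.

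The effect of the cKO was not shown to differ between the lines for any of the 7 genes. The difference between the log2 effects ranged from -0.30 for Pls1 (interval -0.88 to 0.29) to 0.28 for Msn (interval -0.11 to 0.66), and the edgeR adjusted p was 1 for all 7, with 0.00514% of all genes called. These intervals are wide, so a moderate difference between the lines remains possible. Between the controls of the 2 lines, Ezr was 1.19-fold in the AP-2εCre line (275 ± 27.9 against 232 ± 24.0 CPM, SD, n = 6 each), with a log2 difference of 0.25 (SE 0.10, edgeR adjusted p = 0.566), and none of the 7 was called where 0.2% of all genes were. For Ezr it was 0.12 among animals named by a letter and a number and 0.50 among those named by line and number. Pls1 differed slightly more (log2 0.26, SE 0.16, edgeR adjusted p = 0.774).

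The animals' names in the deposited data take 2 forms, a letter with a number (2 libraries per group, 12 in all) and the name of the line with a number (1 per group, 6 in all), and Pls1 differed between them. In each of the 6 groups the library of the line-number form held the least Pls1. These 6 libraries held 39.1, 33.6, 28.5, 26.8, 31.1 and 30.3 CPM, in the order AP-2εCre WT-labelled, heterozygote and cKO and then OMPCre WT-labelled, heterozygote and cKO, with a median of 30.7. The other 12 held 34.3 to 50.2 CPM, with a median of 43.2. Tested as a term beside the 6 group means, the line-number form was 0.727-fold (log2 -0.46, SE 0.08, interval -0.62 to -0.30, edgeR adjusted p = 0.00175).

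**Figure D3:**
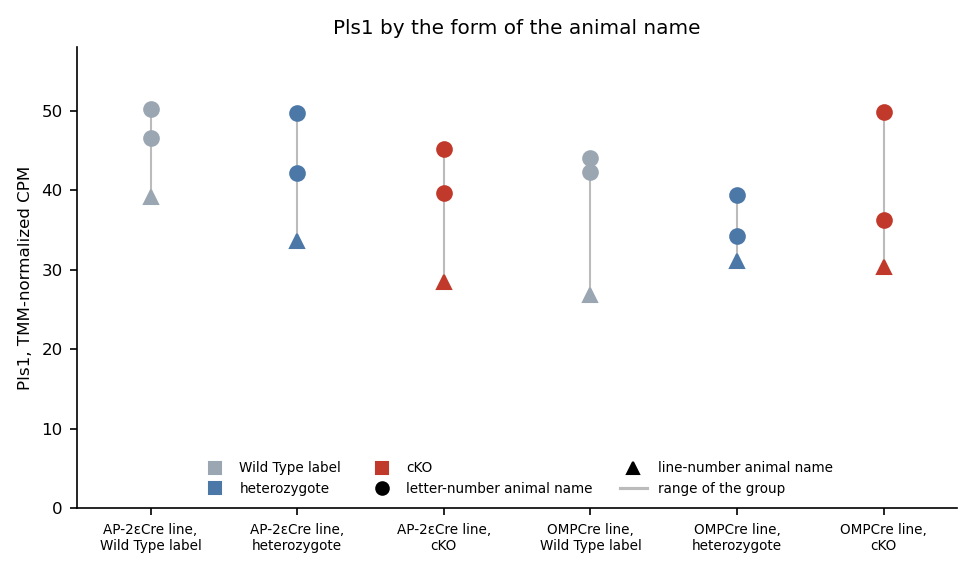
Pls1 in TMM-normalized CPM (y axis from 0) in the 3 libraries of each group, with circles for animals named by a letter and a number, triangles for animals named by line and number, and grey lines for the range of the group. The triangle is the lowest point of all 6 groups, at 26.8 to 39.1 CPM against 34.3 to 50.2 for the circles.

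What the 2 forms of name stand for is not stated in the labels, and the choice to test this term was made after the data had been seen. It was called for 12.1% of all genes (7.38% lower in the line-number form), and 3.76% of all genes were lowest in the line-number library in all 6 groups. Of the 7 members only Pls1 was called for it, and 1 of 7 is near the share over all genes, so the difference is not particular to these genes. The difference remained past the threshold without any 1 of the 18 libraries (edgeR adjusted p 0.00114 to 0.00958) and in the OMPCre line alone (log2 -0.48, adjusted p = 0.0447), where 11.3% of all genes were called. With AP-2εCre libraries alone it was of about the same size but not called (log2 -0.44, adjusted p = 0.137), and there 0.157% of all genes were called. Rdx was 1.11-fold in the line-number form (edgeR adjusted p = 0.0749) and Vil1 1.14-fold (adjusted p = 0.203).

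Beside this difference, all 5 ciliated cell markers (Foxj1, Dnah5, Ccdc39, Tppp3 and Dynlrb2) were lower in the line-number form and Dynlrb2 was called. Their sum had a median of 340 CPM in that form (291 to 621) and 492 in the other (366 to 605). Endothelial markers, 4 of 6 lower with 2 called lower (Pecam1 and Emcn) and 1 higher (Cldn5), summed to 184 to 240 CPM against 286 to 1480. Most of that gap was Pecam1 alone, at 77.2 to 144 CPM against 183 to 1370. Medians were close for Cdh5 (36.1 against 37.3 CPM) and Kdr (26.5 against 27.4), and higher in the line-number form for Tek and Cldn5. The sums thus do not show a lower level of the whole endothelial list. Sustentacular markers, 4 of 5 lower and none called, summed to 835 to 2070 CPM against 1130 to 3130. Immune markers (Cd68, Aif1 and Tyrobp called lower, 4 of 6 lower) summed to 150 to 199 CPM against 140 to 196, and immature neuron markers (Stmn1 and Gap43 called lower, 3 of 4 lower) to 423 to 541 against 438 to 720. Fabp7 of the glial list and Hbb-bs of the red blood cell list were also called lower. Mature VSN markers, 4 of 4 higher and none called, had a median sum of 773 CPM against 638, and gland markers, 2 of 3 lower and none called, one of 361 against 2510. The other lists (apical, basal, progenitor and tuft-like) had no call. The part of these cells in the Pls1 values was not tested.

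Across libraries the members ran with the markers of different cell types. The values are Pearson's r over the 18 libraries between a gene's log2(CPM + 1) and the mean of a marker list on that scale. They are descriptions, since libraries share their line, preparation and depth and every CPM is a share of 1 total. Vil1 went with basal VSN markers (r = 0.897, Spearman's rho = 0.796). Without the 2 libraries farthest from the median r was 0.815, within the AP-2εCre line 0.982 and within the OMPCre line 0.734, and after group means were removed 0.946. With the mature VSN markers, which include Omp, r was 0.554 over all libraries and 0.178 without the 2 farthest. It was 0.848 within the AP-2εCre line, 0.646 within the OMPCre line and 0.883 after group means were removed. The likeness of Vil1 was thus not to basal VSN markers alone. Against sustentacular and ciliated markers Vil1 ran the other way, with r of -0.748 and -0.644.

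Pls1 ran with the lists that Vil1 ran against, with r of 0.818 with ciliated markers (0.644 in the AP-2εCre line and 0.946 in the OMPCre line), 0.703 with sustentacular and 0.632 with endothelial markers. Ezr also went with ciliated markers (r = 0.745, 0.713 and 0.816 in the respective lines), and Eps8 less so (r = 0.553). Espn went with apical VSN markers (r = 0.777, 0.765 and 0.879), while Msn was closest to immune markers (r = 0.526, 0.863 in the AP-2εCre line but 0.218 in the OMPCre line). Rdx had no r above 0.294 (mature VSN markers), and its lowest was with immature neuron markers (-0.602).

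**Figure D4:**
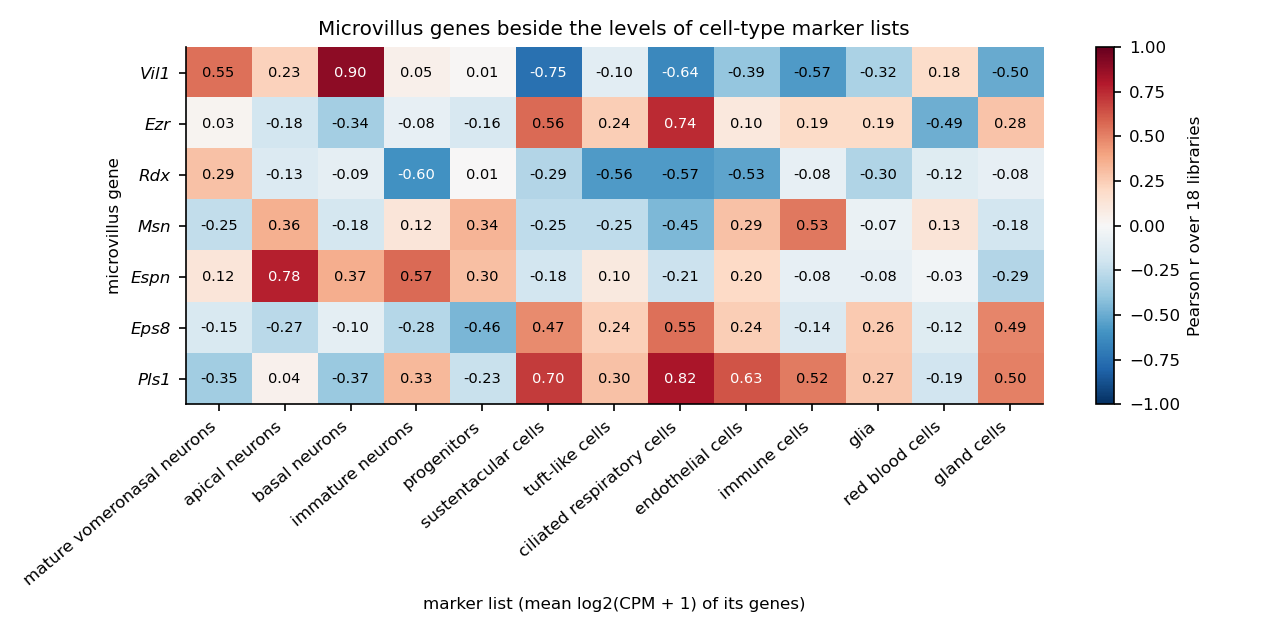
Pearson's r over 18 libraries (colour and number) between each of the 7 genes (rows) and the mean log2(CPM + 1) of 13 cell-type marker lists (columns). Vil1 is highest for basal neurons (0.897), Espn for apical neurons (0.777), and Ezr and Pls1 for ciliated respiratory cells (0.745 and 0.818).

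**Figure D5:**
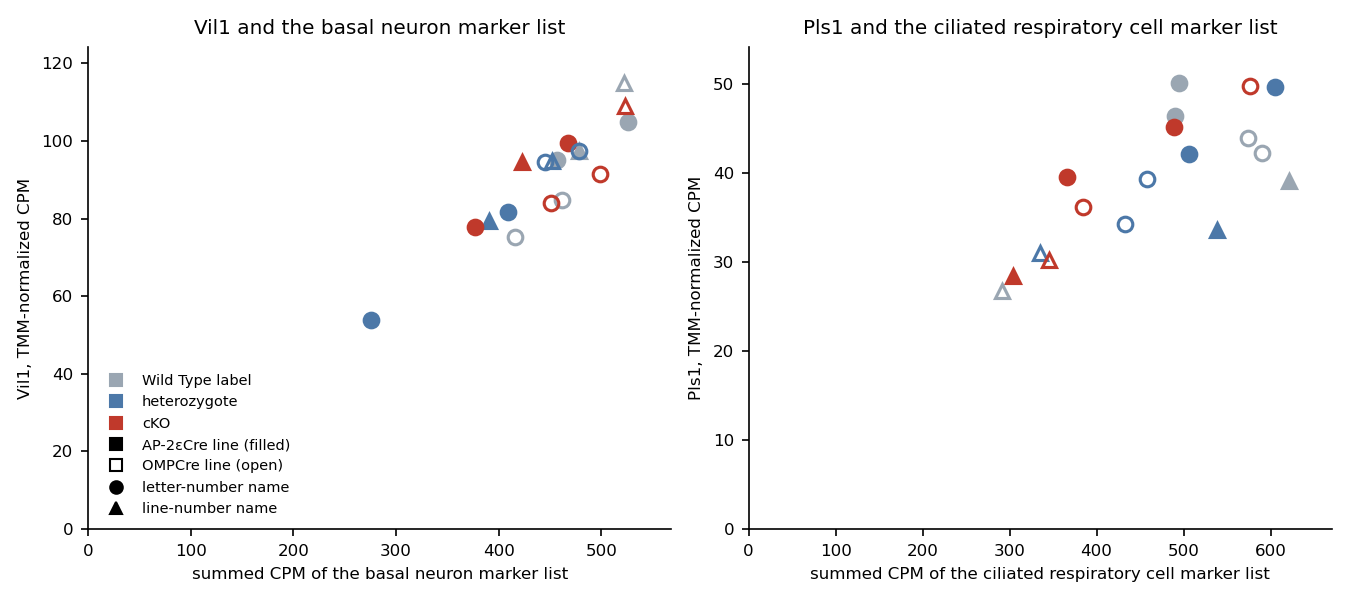
Vil1 against the summed CPM of the basal neuron markers (left) and Pls1 against that of the ciliated respiratory cell markers (right), 1 point per library, coloured by genotype, filled for the AP-2εCre line and open for the OMPCre line. Vil1 and the basal markers are lowest together in AP-2εCre heterozygote replicate 1 (53.8 CPM and 276 CPM), and the triangles, the line-number form, lie low for Pls1 in both lines.

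Among 15788 genes with a mean of at least 1 CPM, those most like Vil1 over the 18 libraries were Pcdhac2, a clustered protocadherin (r = 0.951), Kirrel3, a cell adhesion molecule (r = 0.935), and B4galt5, a galactosyltransferase (r = 0.92). After group means were removed, the vomeronasal receptor Vmn2r1, which is also in the basal marker list (r = 0.974), Add2 (0.956) and the chloride channel Ano2 (0.956) came first. For Pls1 they were Rfk (0.937), Riiad1 (0.927) and Cfap126, a cilia gene (0.921), and for Ezr Adam8 (0.937), Cfap298, another cilia gene (0.856), and Cdc14a (0.855). Eps8 was most like Iqgap2 (0.912), Dsg2 (0.874) and Mia2 (0.864), and Espn like Psen2 (0.892), Bean1 (0.881) and Aldoc (0.863). Rdx was most like Rhobtb3 (0.944), Tbc1d12 (0.898) and Trpm7 (0.898), and Msn like Ednra, an endothelin receptor (0.896), Ikbip (0.888) and Srpx (0.873).

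Members were seldom like each other. Of the 21 pairs the highest r were between Ezr and Eps8 (0.642) and between Ezr and Pls1 (0.611), and the lowest between Ezr and Msn (-0.566), between Vil1 and Pls1 (-0.538) and between Rdx and Pls1 (-0.525). The 3 ERM genes did not move together, with r of -0.299 between Ezr and Rdx and 0.409 between Rdx and Msn.

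The wider set of microvillus genes gave no call between genotypes. It held 44 genes in 5 lists, of which 40 passed the filter, and none was called in any of the 11 comparisons of genotypes or lines. Against both controls 17 were higher and 23 lower in AP-2εCre cKO, and 22 higher and 18 lower in OMPCre cKO. In the villin and gelsolin family all 7 genes were tested, and by mean TPM Gsn (123 ± 38.7, SD, n = 18) stood above Capg (34.6 ± 10.2), Flii (34.2 ± 6.06), Vill (30.4 ± 6.21) and Svil (25.2 ± 7.69), with Scin (17.0 ± 3.9) and Avil (0.945 ± 0.351) lowest. Vill, a villin relative, had a log2 difference of -0.21 (SE 0.12) in AP-2εCre cKO. Of 11 ERM relatives, kinases and membrane partners 5 were higher and 6 lower in each cKO. These include Prom1, a protein of membrane protrusions (mean 248 CPM, log2 -0.21, SE 0.11, in AP-2εCre cKO), and Slc9a3r1, the scaffold NHERF1 (82.4 CPM, log2 -0.10, SE 0.13).

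Of the other actin bundlers, 6 of 6 tested, 3 were higher and 3 lower in each cKO. By mean TPM Actn4 (127), Fscn1 (54.1), Pls3 (46.2) and Lcp1 (41.0) stood above Pls1 (10.2), and Fscn2 (0.231) and Espnl (0.048) below it. Among Eps8 relatives and tip proteins 8 of 10 were tested, 4 higher and 4 lower in each cKO. Baiap2l1, which works with Eps8 on actin, had the lowest edgeR adjusted p of the set in the AP-2εCre cKO, 0.42 (log2 -0.33, SE 0.13). Of the genes of brush border adhesion, motors and nucleation 8 of 10 were tested, 2 higher and 6 lower in AP-2εCre cKO and 5 higher and 3 lower in OMPCre cKO.

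The partners that link microvilli to each other in the intestine were at or near 0. Cdhr2, Cdhr5, Ush1c, Anks4b and Myo7b had means of 0.0426, 0.0162, 0.0947, 0.565 and 0.166 CPM, and Cdhr2 and Cdhr5 never exceeded 8 and 6 counts in a library. Myo1a, the brush border myosin, was at 9.56 CPM, and Myo3a was at 0 counts in all 18 libraries. Motors of wider use were abundant, with Myo6 at 465 and Myo1c at 174 CPM. For the form of the animals' names 2 of the 40 were called, beside 12.1% of all genes. These were Slk, a kinase of ERM proteins (log2 0.22, edgeR adjusted p = 0.0473), and Myo6 (log2 0.28, adjusted p = 0.0424), both higher in the line-number form.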

How the data were processed

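Poly(A)-selected, directional libraries from whole VNO were sequenced by the authors as single reads and quantified with salmon (0.14.0, per the labels) against mouse transcripts of GRCm38. The deposited estimated counts per transcript need not be whole and are not normalized. The deposited TPM values are scaled by the authors' software to 1000000 per library. The methods name a CDS assembly, but the lengths in the files are those of whole GENCODE vM21 transcripts, so TPM here is per whole transcript length. The authors used DESeq2 (1.22.2) for their own tests.

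Each file lists 116248 transcripts, of which 116072 were paired with a gene and 176 were left out (at most 0.032% of counts). Estimated counts were summed per gene, rounded and tested in 1 fit of 6 group means by edgeR 4.0.16 in R 4.3.3 (quasi-likelihood test, TMM, filterByExpr, Benjamini-Hochberg adjustment over 19465 genes, called under 0.05, two-sided). Levels are TMM-normalized CPM, and correlations use log2(CPM + 1). For single genes, exact permutation tests (two-sided) on log2(CPM + 1) were added. The edgeR p-values set a difference against the spread between libraries, estimated over all 6 groups and moderated across genes. The exact test uses only the libraries of its comparison. Tests were checked on simulated data. Groups come from the labels, and in the AP-2εCre line 1 library with conflicting labels was left out. Other steps used Python 3.11.15, numpy 2.4.6, pandas 2.3.3, scipy 1.17.1 and matplotlib 3.10.9.

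Alternatives were DESeq2 1.42.0, its size factors in edgeR, filters of at least 1 count in total or 10 counts in every library, fits of 1 line alone or with controls pooled, length-scaled TPM, a term for the form of the animals' names, a block for the replicate number, the library with conflicting labels added to heterozygotes, and each library left out. The most counted transcript alone and the test of the name form were chosen after seeing the data.

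The members, the wider lists and the marker lists were chosen with earlier results of these data known. Named genes are the members, list members that were called, Smad4, Ano1, and for each member the 3 genes with the highest r, and other list genes were named after their values were seen. The top 10 genes took 16.8% to 32.3% of each library's counts.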

Additional observations from a re-analysis of the deposited data

How the results depend on the processing

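None of the 7 genes was called between genotypes or lines under any of the 29 other settings, 18 of which each left out 1 library. In all, 2198 tests of a member were made, and the lowest adjusted p was 0.176, for Espn in the mean of both lines without AP-2εCre cKO replicate 1 (edgeR), with 0.215 by DESeq2. The replicate number as a block also left 0 of the 7 called in each comparison, with log2 -0.27 for Eps8 (adjusted p = 0.382) in AP-2εCre cKO against both controls. Libraries with the same number showed correlations of their deviations from -0.183 to 0.146 in the AP-2εCre line and -0.034 to 0.287 in the OMPCre line, so that not every pair exceeded 0.1. In the OMPCre line their mean was 0.112, and replicate 3 is the line-number animal in all 3 of its groups. The mean for different numbers, -0.056, is no separate result, since deviations from a group mean cancel within the group. The labels give the numbers no shared origin. For 29 of the differences, those between cKO and both controls, their mean over lines and 8 others, 808 values were compared and 794 kept their direction. Vil1 in OMPCre cKO turned to -0.0194 with the most counted transcript alone. Leaving out 1 library turned small differences, with ranges of -0.14 to 0.0643 (Rdx, AP-2εCre cKO), -0.0929 to 0.11 (Vil1, OMPCre cKO), -0.13 to 0.11 (Ezr), -0.16 to 0.0502 (Msn), -0.12 to 0.02 (Eps8) and -0.13 to 0.25 (Pls1), and -0.16 to 0.0307 for Pls1 in the mean of both lines. For the form of the animals' names 1 member was called. It was 2 (Rdx and Pls1) with DESeq2 (3423 of 19465 genes called in all), with the most counted transcript (1647 of 19308) and in the OMPCre line alone (2102 of 18623), 2 (Vil1 and Pls1) with length-scaled TPM (1868 of 19513), 0 in the AP-2εCre line alone (29 of 18495), and leaving out 1 library 1 to 2, with Rdx (adjusted p 0.0211 and 0.0439) joining without AP-2εCre heterozygote or WT-labelled replicate 3. The cause was not tested. Of the 21 genes named as most like a member, 4 (Adam8, Srpx, Bean1 and Iqgap2) were also among the 3 most like it after group means were removed. Counts of all called genes ranged from 4 to 293 in AP-2εCre cKO and 0 to 62 in OMPCre cKO over the settings, against 16 and 15 in the reported fit, and were highest with DESeq2 in both. With 3 libraries a group, the 95% intervals of the members reached from 0.19 (Rdx) to 0.42 (Pls1) on the log2 scale to either side in cKO against both controls, before any adjustment over genes.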

Other observations

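The AP-2εCre library with conflicting labels was in no group. It held 89.8 CPM of Vil1, 256 of Ezr, 167 of Rdx, 160 of Msn, 14.3 of Espn, 53.9 of Eps8 and 33.7 of Pls1, with 87.6 of Smad4 and 144 of Ano1.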
